A study of Sus scrofa with 72 samples.

Results

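Adipogenic cultures of synovial stem cells were compared between day 7 and day 4, the span in which induced cells move from the first lipid droplets towards the mature fat cell. The comparison used the arrays labelled as day 7 and day 4 of adipogenic induction medium (AIM), from both breeds and both tissues. It rested on 15 of the 72 arrays of the series, 7 of day 7 and 8 of day 4. One further array labelled as day 7 of AIM, the second replicate of the Angeln Saddleback fat pad, was left out because its label conflicts with the group means in the tables of the study.

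Mesenchymal stem cells were taken from the knee joints of male piglets aged 59 days, 3 piglets of the Angeln Saddleback (AS) breed and 3 of the German Landrace (DL) breed. Cells came from adipose synovium (FP, the infrapatellar fat pad) and from fibrous synovium (FS, the joint capsule). They were pooled over the piglets of a breed, which gave 4 pools, and at passage 3 each pool was cultured in AIM (the StemPro adipogenesis differentiation kit) or in complete culture medium (CCM, high-glucose DMEM with foetal bovine serum and antibiotics). Day 7 in AIM had 1 array of AS FP and 2 arrays each of AS FS, DL FP and DL FS, and day 4 in AIM had 2 arrays of each pool. Arrays of a group were independent cultures of the same pool. The p-values therefore measured the spread between cultures, not between piglets, and the single AS FP array of day 7 was assumed to vary like the others. The values are log2 intensities of porcine Snowball arrays, on which signals of different probe sets cannot be set against each other.

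A white fat cell forms when a committed precursor stops dividing and switches on PPARG and the C/EBP factors, which in turn induce the proteins that take up fatty acids, join them to glycerol and coat the growing lipid droplet. Maturation after this switch enlarges the droplets and changes the matrix around the cell. The intake of glucose and fatty acids is coupled to the making of NADPH, the reducing agent for fatty acid synthesis. In joint tissue the same precursor cells can also form cartilage or bone, so a culture can hold fat cells beside cells that did not convert.

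The culture condition given by the labels was checked against markers of fat cells. The mean log2 intensity of 18 tested fat cell markers was 8.84 to 10.31 on the day 7 arrays (median 9.46), against 8.29 to 9.76 on the day 4 arrays (median 9.03). The median marker stood at 8.94 to 10.54 on the 7 day 7 arrays in AIM and at 4.50 to 5.82 on the 7 day 7 arrays in CCM. The array that was left out had 4.77. LEP and CFD, leptin and adipsin, were in the marker list and were not among the tested genes. The arrays of both days thus carried the fat cell programme throughout, and they overlapped in it.

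Across all genes the step from day 4 to day 7 was small. Of 18335 tested probe sets, 616 were higher and 429 were lower on day 7 at an adjusted p under 0.01 (limma, Benjamini-Hochberg), which is 3.36% and 2.34%, and 3929 had an unadjusted p under 0.05. The step before it, day 4 against day 1, had 3737 higher and 5201 lower probe sets (20.4% and 28.4%), and the step after it, day 14 against day 7, had 767 higher and 334 lower (4.18% and 1.82%). These steps share the arrays of day 4 or of day 7 with the comparison and are given side by side only. A difference of at least 1 on the log2 scale was reached by 116 of the higher and 25 of the lower probe sets. The median difference over all tested probe sets was -0.01 and the median standard error 0.13. On 74 probe sets (0.404%) the 7 arrays of day 7 lay wholly above the 8 of day 4, and on 83 (0.453%) wholly below. Without pool DL FP 313 were higher and 267 lower, without DL FS 342 were higher and 423 lower, and without AS FS 580 were higher and 214 lower.

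Counted once per gene, by the probe set with the highest mean signal, 320 of 7496 named genes rose (4.27%) and 211 fell (2.81%). Among the genes, 43 (0.574%) were wholly above and 41 (0.547%) wholly below on day 7. In what follows, a gene passed at an adjusted p under 0.01 in limma, and a difference is day 7 minus day 4 on the log2 scale, with each pool given the same weight. The counts of gene lists below are to be read beside the shares of 4.27% and 2.81%. A count near these shares is no result about its list.

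The named gene that rose most was CA3, carbonic anhydrase 3, an abundant cytosolic enzyme of fat cells and slow muscle. CA3 measured 8.74, 9.20 and 10.32 (lowest, median and highest) on day 7, against 4.89, 6.27 and 7.60 on day 4. Every day 7 array stood above every day 4 array, and the difference was 3.03 ± 0.26 (SE; adjusted p = 1.5e-10), or 8.17-fold. The 4 pools gave 2.86 (AS FP), 2.61 (AS FS), 3.66 (DL FP) and 2.99 (DL FS).

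A pair of genes that act together rose next to it. DUOX2 is a membrane oxidase that releases hydrogen peroxide, and DUOXA2 is the maturation factor that carries it to the cell surface. DUOXA2 measured 6.75, 7.05 and 7.60 on day 7, against 3.87, 4.89 and 5.67 on day 4, a difference of 2.29 ± 0.15 (adjusted p = 3.3e-13). DUOX2 measured 4.88, 5.60 and 6.01 on day 7, against 3.20, 3.63 and 3.89 on day 4, a difference of 1.96 ± 0.14 (adjusted p = 6.7e-12). Neither gene overlapped between the days. The second DUOX2 probe set differed by 1.72. On day 4 the DUOX2 mean was close to that of the background control probes (3.48).

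Of the other genes with the largest increases, PTGER3 encodes the prostaglandin E2 receptor EP3, which couples to the inhibition of cAMP formation in fat cells. PTGER3 measured 4.82, 5.78 and 7.61 on day 7, against 3.16, 4.19 and 5.66 on day 4, with overlapping arrays and a difference of 2.12 ± 0.17 (adjusted p = 2.7e-11). BTC, betacellulin, is a ligand of the EGF receptor and measured 5.76, 6.73 and 8.13 on day 7, against 4.01, 4.79 and 6.51 on day 4 (difference 1.95, adjusted p = 2.4e-09). ITIH3, a heavy chain that binds hyaluronan, measured 7.21, 7.88 and 9.01 on day 7, against 5.22, 6.28 and 7.24 on day 4 (difference 1.76, adjusted p = 6.7e-12). BTC and ITIH3 each overlapped between the days and were higher on day 7 in all 4 pools. PON1, a serum esterase and lactonase, measured 4.39, 5.01 and 6.02 on day 7, against 2.26, 3.15 and 3.72 on day 4. The day 4 mean of PON1 lay below that of the background control probes, so its rise is given as at least 1.65 on the log2 scale. Its adjusted p of 8.5e-10 is that of the fitted limma difference, not of this bound. The gene that the platform calls CYP3A46, of the cytochrome P450 3A family whose members resemble each other in sequence, rose by 1.50 (adjusted p = 1.5e-09), and its 5 other probe sets differed by 0.27 to 1.67.

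**Figure D1:**
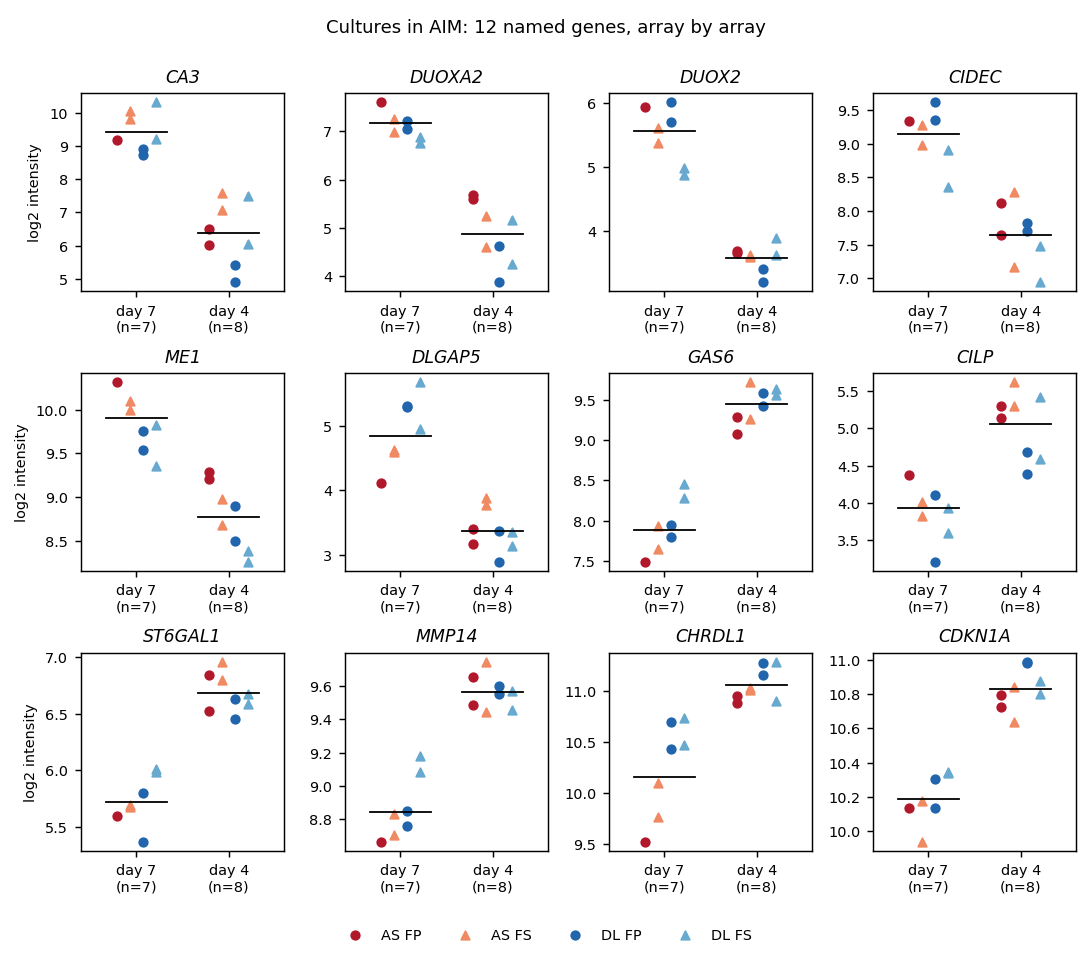
Log2 intensity on the vertical axis of 12 genes, array by array, with the 7 arrays of day 7 left of the 8 arrays of day 4, one colour per pool and a bar for the mean with pools weighted equally. All 12 genes separate the days without overlap: CA3, DUOXA2, DUOX2, CIDEC, ME1 and DLGAP5 stood higher on day 7, and GAS6, CILP, ST6GAL1, MMP14, CHRDL1 and CDKN1A stood lower.

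Genes of the lipid droplet and of triacylglycerol storage rose in part. Of the 18 tested fat cell markers, 4 rose (AQP7, CIDEC, DGAT2 and GPD1), none fell and the median difference was 0.33, against -0.01 over all tested probe sets. CIDEC, the droplet protein that moves lipid from small droplets into large ones, measured 8.36, 9.28 and 9.62 on day 7, against 6.94, 7.67 and 8.28 on day 4, without overlap (difference 1.50 ± 0.22, adjusted p = 5.1e-06). The 2 other CIDEC probe sets gave 1.40 and 1.49. DGAT2, which adds the last fatty acid to a triacylglycerol, measured 10.80, 11.17 and 11.58 on day 7, against 9.23, 10.04 and 10.95 on day 4 (difference 1.05 ± 0.17, adjusted p = 4.3e-05).

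In the glycerol branch, GPD1 makes glycerol phosphate from an intermediate of glycolysis. It measured 6.24, 7.28 and 9.01 on day 7, against 5.93, 6.47 and 7.86 on day 4 (difference 0.91, adjusted p = 0.00031), while a second GPD1 probe set went the other way at -0.11. AQP7, the channel that lets glycerol leave the fat cell, rose by 0.57 (adjusted p = 0.0068). AGPAT1, an early acyltransferase of the pathway, rose by 0.35 (adjusted p = 0.0088), and its other probe sets ranged between -0.07 and 0.31. In all, 3 of 14 tested genes of triacylglycerol synthesis, 2 of 12 droplet coat genes and 3 of 14 lipolysis genes rose, and none of these lists had a gene that fell. Their medians were 0.20, 0.24 and 0.35. GPAM, the first acyltransferase, and LPIN1, a phosphatidate phosphatase, did not pass by their brightest probe sets (0.26 and 0.38), while a dimmer probe set of each did (0.57 and 0.52, adjusted p = 0.0016 and 0.0027). With 1 array left out at a time the lipolysis count ran between 1 and 5.

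The lipolysis genes that rose encode receptors and a channel. ADORA1 is the adenosine A1 receptor, which restrains lipolysis, and measured 7.64, 8.53 and 8.80 on day 7, against 6.41, 7.41 and 7.81 on day 4 (difference 1.12 ± 0.18, adjusted p = 4e-05). NPR3, the receptor that clears natriuretic peptides, rose by 0.68 (adjusted p = 0.0043), and its other probe sets differed by 0.25 to 1.33. The third was AQP7.

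Among genes of fatty acid synthesis and desaturation 5 of 16 rose and 1 fell, with a median of 0.22. ME1, malic enzyme, supplies NADPH for synthesis and measured 9.36, 9.83 and 10.32 on day 7, against 8.25, 8.79 and 9.28 on day 4. Its arrays did not overlap and the difference was 1.13 ± 0.11 (adjusted p = 1.1e-09). SCD, the desaturase that makes monounsaturated fatty acids, rose by 0.42 (adjusted p = 0.00096) and ELOVL7, an elongase, by 0.68 (adjusted p = 0.00095). FADS2, which desaturates polyunsaturated fatty acids, fell by 0.53 (adjusted p = 0.0022). FASN itself measured 9.66, 9.83 and 10.82 on day 7, against 9.40, 9.75 and 10.41 on day 4 (difference 0.31 ± 0.21, adjusted p = 0.44).

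For lipid uptake 1 of 13 genes passed. VLDLR, the receptor for triacylglycerol-rich lipoproteins, measured 8.08, 8.50 and 8.84 on day 7, against 7.42, 7.80 and 8.01 on day 4, without overlap (difference 0.77 ± 0.10, adjusted p = 4.2e-07). Of 13 genes of sterol efflux and of the sterol-sensing LXR receptors 3 rose: APOE, a lipoprotein component, by 0.84 (adjusted p = 6.7e-05), SOAT1, which esterifies cholesterol, by 0.40, and MYLIP, which marks lipoprotein receptors for degradation, by 0.38. In cholesterol biosynthesis 2 of 17 fell and none rose, with a median of -0.21 and 13 of 17 differences below 0. The 2 were FDPS, which makes farnesyl diphosphate, at -0.35 (adjusted p = 0.0043) and NSDHL, a late sterol enzyme, at -0.29 (adjusted p = 0.0096). With 1 array left out at a time this count ran between 0 and 2.

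The regulators and best known products of the fat cell programme did not pass in the fit over all 36 groups. PPARG, the central nuclear receptor of the programme, measured 9.76, 10.23 and 10.49 on day 7, against 9.86, 10.16 and 10.46 on day 4 (difference -0.00 ± 0.17, adjusted p = 1). CEBPA, its partner factor, differed by 0.28 ± 0.12 (adjusted p = 0.13) and PLIN1, the main coat protein of the fat cell droplet, by -0.05 ± 0.17 (adjusted p = 0.92). ADIPOQ, which encodes the hormone adiponectin, measured 12.90, 13.03 and 13.29 on day 7, against 12.20, 12.71 and 13.05 on day 4 (difference 0.34 ± 0.31, adjusted p = 0.6). FABP4, the fatty acid carrier of fat cells, had the larger difference of 0.90 but also the larger error of 0.39 (adjusted p = 0.16). These errors use a spread estimated for each probe set over all 36 groups, those in CCM included, where replicates of some pools lay farther apart. In AS FP on day 4 the FABP4 replicates were 6.97 and 3.90 in CCM, against 12.21 and 11.94 in AIM. Those of ADIPOQ were 7.79 and 5.41 in CCM, against 13.05 and 12.90 in AIM. For ADIPOQ and FABP4 the missing call therefore does not decide whether they rose. Within every pool each day 7 array of ADIPOQ and of FABP4 stood above each day 4 array. On day 4 the ADIPOQ mean was already 6.67 above that of day 1.

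Among 26 adipogenic transcription factors 3 rose, with a median of -0.03. The 3 became 1 without the AS FP array of day 7, replicate 1 of DL FS on day 4, or replicate 2 of AS FP or of AS FS on day 4. PPARGC1A, the coactivator that drives mitochondrial genes, rose by 0.48 (adjusted p = 0.0025) and MLXIPL, the glucose-sensing factor ChREBP, by 0.41 (adjusted p = 0.0045). RORA, a nuclear receptor, rose by 0.38 by its brightest probe set, but 2 others gave -0.35 and -0.22.

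Most of the tested thermogenic and mitochondrial genes moved little. Of 17 browning genes 2 rose, DIO2 and PPARGC1A. DIO2, the deiodinase that activates thyroid hormone, measured 5.41, 6.12 and 7.03 on day 7, against 3.93, 4.98 and 6.31 on day 4 (difference 1.25 ± 0.18, adjusted p = 4.2e-06), with overlapping arrays. PDK4, which closes the entry of pyruvate into the citrate cycle, rose by 1.08 (adjusted p = 0.00043). In the respiratory chain none of 19 tested genes passed in either direction by limma, with 0.02 as the median. The list had 72 genes, 47 of them on the array, so the 19 speak for a part of it only. The gene with the smallest p there was NDUFB8, a subunit of complex I, at 0.25 (adjusted p = 0.19), and NDUFB2, another subunit, followed at 0.16 (adjusted p = 0.25).

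In beta-oxidation 3 of 29 rose and 1 fell. ACADVL, which starts on very long chains, CPT1A, the mitochondrial gate for fatty acids, and ACAA1, a peroxisomal thiolase, differed by 0.41, 0.41 and 0.43, while ACADL, which starts on long chains, fell by 0.39 (adjusted p = 0.00031). The other CPT1A probe sets gave -0.27 and 0.06. Of 22 genes of branched-chain amino acid degradation 2 fell, IVD at -0.55 (adjusted p = 8.1e-05) and MCCC2 at -0.40 (adjusted p = 0.0012), both of the leucine pathway. In insulin signalling 3 of 30 fell: FOXO3, a transcription factor that insulin restrains, at -0.57 (adjusted p = 0.00021, without overlap), PHLPP1, a phosphatase of AKT, at -0.46 and PIK3R1, the regulatory subunit of PI3-kinase, at -0.44.

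Secreted hormones of fat tissue gave 2 increases among 17. VEGFA, the angiogenic growth factor, measured 9.27, 9.43 and 10.44 on day 7, against 8.27, 8.71 and 10.17 on day 4 (difference 0.73 ± 0.12, adjusted p = 3.1e-05). RBP4, the retinol carrier, rose by 0.54 (adjusted p = 0.0099), a call that was lost in 24 of 30 other settings. VEGFA and EPAS1, a hypoxia-inducible factor that rose by 0.39, were also the 2 of 29 glycolysis and hypoxia genes that passed.

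Genes of cell division formed the list with the most calls. Of 71 tested genes that build the spindle and the kinetochore 32 rose and none fell, where 4.27% of all named genes rose. Their median difference was 0.51 and 62 of 71 differences were above 0. Levels stayed low: the mean of the list was 4.50 to 5.28 on the day 7 arrays (median 4.95), against 4.12 to 4.73 on the day 4 arrays (median 4.31), and the background control probes averaged 3.43 on day 7 and 3.48 on day 4. The same list had dropped by a median of 2.61 between day 1 and day 4 in AIM, a step that shares the day 4 arrays.

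DLGAP5, a protein of the spindle, measured 4.10, 4.95 and 5.68 on day 7, against 2.88, 3.36 and 3.87 on day 4, without overlap. Its day 4 mean was below that of the background controls, which makes the rise at least 1.36 on the log2 scale. The adjusted p of 6.8e-10 belongs to the fitted limma difference without this bound. ANLN, which anchors the ring that divides the cell, measured 5.73, 6.66 and 7.54 on day 7, against 4.66, 5.15 and 5.73 on day 4 (difference 1.38 ± 0.14, adjusted p = 2.4e-09). CENPF, a kinetochore protein, and PBK, a mitotic kinase, each rose by 1.26 (adjusted p = 5.4e-08 and 2.9e-06). The count of 32 ran between 26 and 40 with 1 array left out at a time, was 15 without pool DL FP and 22 without DL FS. It was 13 in a fit of the 15 arrays alone with the pool as a block and 6 with the culture line as a fixed block.

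In the DNA replication list 3 of 48 genes were higher and 1 lower, with a median of 0.16. The 3 became 1 without any one of 10 arrays, which were replicate 1 of AS FS on day 7, of DL FP on either day and of DL FS on day 7, and replicate 2 of AS FP on day 4, of AS FS on either day, of DL FP on day 7 and of DL FS on either day. RRM2, a subunit of ribonucleotide reductase, rose by 1.03 (adjusted p = 0.0015), CCNE2, a cyclin of S phase entry, by 0.54 and SLBP, which binds histone messages, by 0.23. TYMS, thymidylate synthase, went down: it measured 7.27, 7.95 and 8.09 on day 7, against 8.25, 8.44 and 8.67 on day 4, without overlap (difference -0.65 ± 0.11, adjusted p = 7.8e-05).

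Targets of p53 and inhibitors of the cell cycle went the other way from mitosis, with 6 of 30 lower, none higher and a median of -0.20. CDKN1A, the cyclin kinase inhibitor p21, measured 9.94, 10.17 and 10.35 on day 7, against 10.63, 10.82 and 10.99 on day 4 (difference -0.64 ± 0.12, adjusted p = 0.00014). MDM2, the ligase that degrades p53, measured 7.76, 8.10 and 8.53 on day 7, against 8.58, 8.78 and 9.07 on day 4 (difference -0.69 ± 0.13, adjusted p = 0.0004). For both genes every day 7 array lay below every day 4 array. ZMAT3 and CCNG1, further p53 targets, fell by 0.61 and 0.42, and the call of ZMAT3 was lost in 22 of 30 other settings. The count was 3 without the AS FP array of day 7 or without replicate 1 of DL FP on day 7, and also without any one of the pools AS FP, AS FS and DL FP.

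Genes of the response to amino acid shortage rose in part. Of 30 targets of the stress factor ATF4, 7 rose and none fell, with a median of 0.23, where 4.27% of all named genes rose. For 5 of the 30 every day 7 array stood above every day 4 array, against 0.574% of all named genes. PSPH, the last enzyme of serine synthesis, measured 4.13, 4.68 and 5.75 on day 7, against 2.50, 3.62 and 3.82 on day 4. Its day 4 mean was below background, so the rise was at least 1.40 (adjusted p = 3.9e-09 for the fitted limma difference without this bound). SLC7A11, the cystine importer, measured 6.49, 7.15 and 7.43 on day 7, against 5.53, 6.12 and 6.57 on day 4 (difference 1.04 ± 0.12, adjusted p = 8.3e-08), with overlap. CHAC1, which degrades glutathione, rose by 0.91 without overlap (adjusted p = 1.4e-05).

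Of 14 aminoacyl-tRNA synthetases, which load amino acids onto tRNA, 3 rose: AARS1 (alanine), SARS1 (serine) and GARS1 (glycine), by 0.77, 0.59 and 0.34. AARS1 measured 7.57, 7.90 and 8.08 on day 7, against 6.84, 7.13 and 7.50 on day 4, without overlap (adjusted p = 4.6e-09). By contrast none of 25 chaperones of the endoplasmic reticulum and none of 18 cytosolic ribosomal proteins passed, with medians of -0.02 and -0.04. The ribosomal list had 75 genes, 57 of them on the array, so most of it was not tested. The chaperone genes with the smallest p were PDIA6 at -0.28 (adjusted p = 0.02) and PDIA5 at 0.34 (adjusted p = 0.04), and the ribosomal ones RPL35 at 0.16 (adjusted p = 0.13) and RPS27 at 0.27 (adjusted p = 0.20). In the antioxidant list 3 of 36 rose, SLC7A11, GCLC, which starts glutathione synthesis, at 0.39 and NQO1, a quinone reductase, at 0.40.

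**Figure D2:**
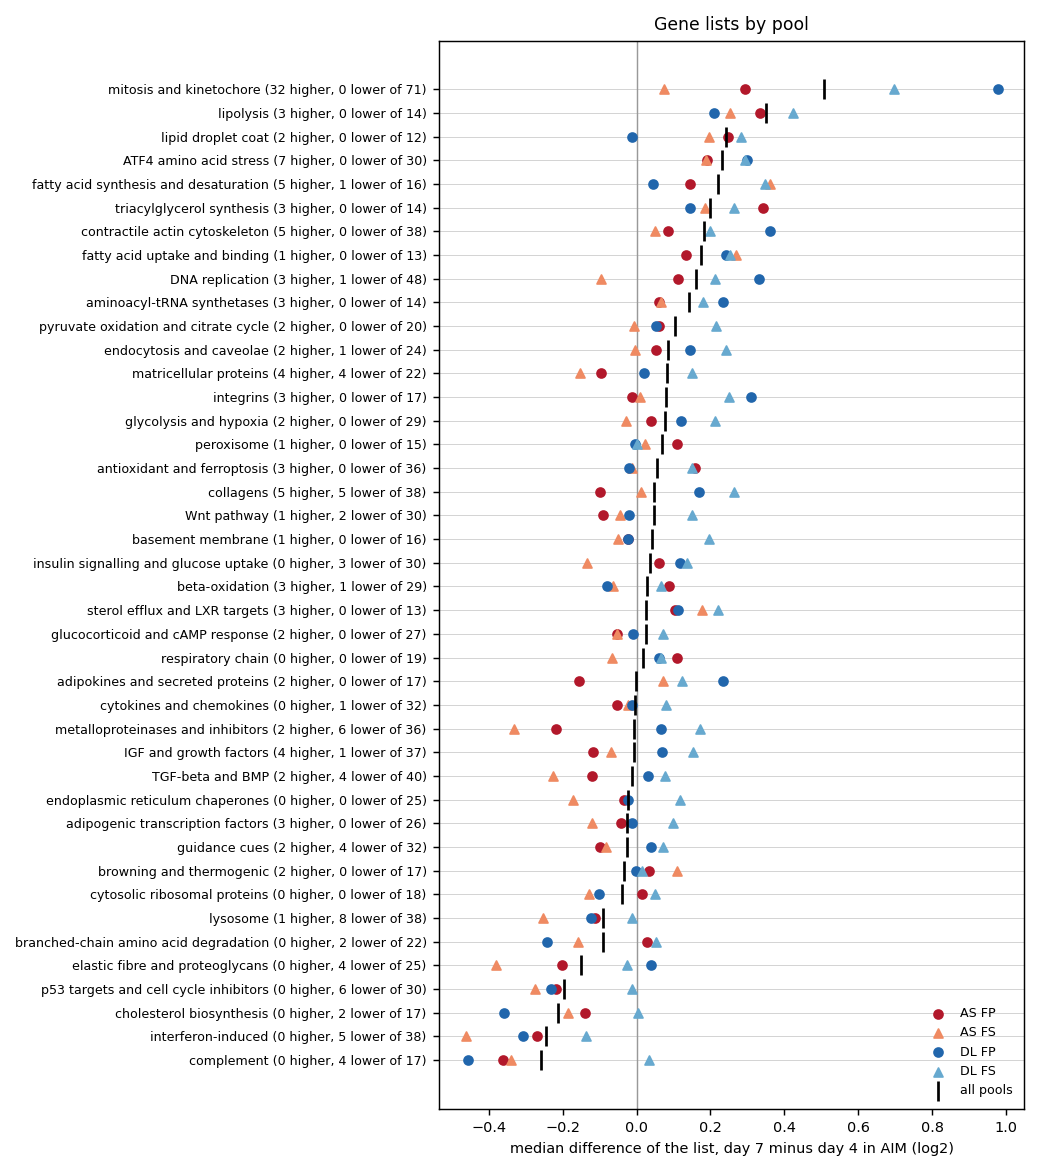
Median log2 difference, day 7 minus day 4 in AIM, on the horizontal axis for the tested genes of 42 pathway lists, with a coloured point for each of the 4 pools and a black bar for all pools. The mitosis list lies farthest right at 0.51, with the DL pools at 0.98 (FP) and 0.70 (FS) and the AS pools at 0.29 (FP) and 0.07 (FS), and complement lies farthest left at -0.26.

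By brightest probe set, the named gene that fell most was GAS6, a secreted ligand of the TAM receptor kinases, which clear dead cells and dampen inflammation. GAS6 measured 7.49, 7.94 and 8.45 on day 7, against 9.07, 9.48 and 9.72 on day 4. Every day 7 array lay below every day 4 array, and the difference was -1.56 ± 0.12 (adjusted p = 2.1e-11), or 2.95-fold lower. It was -1.71 in AS FP, -1.70 in AS FS, -1.62 in DL FP and -1.22 in DL FS.

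Complement genes were lower with it. Of 17 tested complement genes 4 fell, none rose and 14 differences were below 0, with a median of -0.26, where 2.81% of all named genes fell. CFB, the protease precursor of the alternative pathway, measured 5.42, 5.68 and 6.32 on day 7, against 6.08, 7.02 and 7.62 on day 4 (difference -1.23 ± 0.19, adjusted p = 1.3e-05). C3, the protein on which all complement pathways converge, measured 4.14, 4.66 and 5.33 on day 7, against 5.32, 6.02 and 6.64 on day 4 (difference -1.22 ± 0.24, adjusted p = 0.00039). The arrays of both genes overlapped, for C3 by a single day 7 array and a single day 4 array at nearly the same level. C2, the protease of the classical pathway, fell by 1.06 (adjusted p = 5e-05) and CFI, which inactivates C3b, by 0.65 (adjusted p = 0.0056).

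Interferon-induced genes also lay lower, with 33 of 38 differences below 0, a median of -0.24 and 5 genes that fell. HERC6, a ligase of that response, measured 5.48, 5.84 and 6.23 on day 7, against 6.12, 6.74 and 7.45 on day 4 (difference -0.88 ± 0.17, adjusted p = 0.00033). OAS2, a sensor of double-stranded RNA, measured 7.72, 8.33 and 8.87 on day 7, against 8.73, 8.86 and 10.41 on day 4 (difference -0.82 ± 0.14, adjusted p = 4.5e-05). OAS1, a related sensor, fell by 0.79 by its brightest probe set, against -0.04 for the other, and IFI6 fell by 0.56. The count of 5 was 11 without replicate 1 of AS FS on day 4. It was 2 without replicate 1 of DL FP on day 7 or replicate 2 of AS FP or AS FS on day 4, and 3 without replicate 1 of AS FS or DL FS on day 7 or replicate 1 of DL FP or DL FS on day 4. Of 32 cytokines and chemokines 1 passed: IL33, a nuclear alarm cytokine, measured 4.24, 6.63 and 7.86 on day 7, against 6.22, 7.34 and 8.02 on day 4 (difference -1.18 ± 0.21, adjusted p = 0.00017).

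The platform's C3H2orf40 fell by 1.20 (adjusted p = 1.6e-06), with 4.01, 5.19 and 5.72 on day 7, against 5.36, 6.01 and 6.96 on day 4 and overlapping arrays.

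Genes of the extracellular matrix changed in both directions. Among small leucine-rich proteoglycans, which space collagen fibrils, DCN fell by 0.58 (adjusted p = 1.1e-05) and FMOD by 0.67 (adjusted p = 3.3e-07). Together with LTBP2, a fibrillin-binding protein, at -0.75 and HAPLN3, a link protein for hyaluronan, at -0.59, they were the 4 of 25 elastic fibre and proteoglycan genes that fell, and none rose. The other LTBP2 probe sets ranged between -0.86 and -0.01. CILP, a matrix protein of cartilage, measured 3.20, 3.93 and 4.37 on day 7, against 4.39, 5.22 and 5.62 on day 4, without overlap (difference -1.13 ± 0.19, adjusted p = 5.2e-05). SPON1, a secreted adhesion protein, fell by 1.40 ± 0.32 (adjusted p = 0.0027), ECM2 by 0.95 and MATN2, of the matrilin family, by 0.70. Of the 22 matricellular genes 4 fell in all, and 4 rose. The 4 became 2 without replicate 1 of AS FP on either day, replicate 1 of DL FP on day 7 or of DL FS on day 4, or replicate 2 of AS FS or DL FP on day 4. The largest of the increases was THBS1, thrombospondin 1, which measured 10.67, 11.07 and 11.97 on day 7, against 9.89, 10.40 and 11.08 on day 4 (difference 0.79 ± 0.12, adjusted p = 1.4e-05).

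Collagens and their enzymes split evenly, with 5 of 38 higher and 5 lower. COL12A1, a collagen that decorates fibrils, rose by 0.71 (adjusted p = 4.4e-06) and LOXL2, which crosslinks collagen, by 0.65 without overlap (adjusted p = 1.1e-06). COL14A1, a close relative of COL12A1, fell by 0.83 (adjusted p = 0.003) and P4HA3, a prolyl hydroxylase, by 0.69. COL6A3, a chain of the microfibrillar collagen VI that was picked after its values were seen, passed on the lower side by 8 of its 9 tested probe sets, at -0.61 to -1.30. The count of 5 lower was 3 without the AS FP array of day 7 or replicate 1 of DL FS on day 7. NID2, a linker of the basement membrane, rose by 0.83 (adjusted p = 1.6e-08) and was the single call among 16 basement membrane genes.

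Metalloproteinases and their inhibitors gave 6 lower and 2 higher of 36, with a median of -0.01. MMP14, a collagenase held in the cell membrane, measured 8.66, 8.83 and 9.18 on day 7, against 9.44, 9.56 and 9.75 on day 4, without overlap (difference -0.72 ± 0.09, adjusted p = 1.6e-07). MMP11, stromelysin 3, measured 4.72, 5.08 and 5.25 on day 7, against 5.31, 5.75 and 6.02 on day 4, also without overlap (difference -0.71 ± 0.11, adjusted p = 2.4e-05). MMP23B fell by 0.58, and ADAMTS1, a protease of proteoglycans, rose by 0.63 (adjusted p = 0.0048).

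Genes of the contractile cytoskeleton and of matrix receptors rose in part. Of 38 contractile genes 5 rose and none fell, with a median of 0.18. ACTG2, the smooth muscle gamma actin, measured 9.30, 9.53 and 11.41 on day 7, against 7.78, 8.13 and 10.08 on day 4 (difference 1.50 ± 0.29, adjusted p = 0.0004). TPM2, a tropomyosin, rose by 1.21 (adjusted p = 0.00015), FHL1, a LIM protein of muscle, by 1.03 (adjusted p = 5.8e-08) and MYL9, a myosin light chain, by 0.78 (adjusted p = 0.007). The arrays of ACTG2 overlapped. The count of 5 was 3 without replicate 1 of AS FP or AS FS on day 4, either replicate of DL FP on either day, replicate 1 of DL FS on day 7 or replicate 2 of AS FS on day 7. The second TPM2 probe set gave 0.16. Of 17 integrins 3 rose: ITGA8 by 1.11, ITGA11, a collagen receptor, by 0.85 and ITGA7, a laminin receptor, by 0.60, but another probe set of ITGA11 gave -0.09.

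Signals between cells changed one gene at a time. CHRDL1, a secreted antagonist of BMPs, measured 9.52, 10.43 and 10.73 on day 7, against 10.88, 11.02 and 11.29 on day 4, without overlap (difference -0.91 ± 0.08, adjusted p = 5.9e-10). TGFB2 measured 6.88, 7.19 and 7.51 on day 7, against 7.62, 7.89 and 8.02 on day 4, also without overlap (difference -0.69 ± 0.10, adjusted p = 2.7e-06). TGFB3 and INHBA, a subunit of activin, rose by 0.84 each (adjusted p = 0.00073 and 0.0062). In the TGF-beta and BMP list 4 of 40 genes fell and 2 rose. The 2 became 1 without replicate 1 of DL FP on either day, replicate 1 of DL FS on day 4, or replicate 2 of AS FS on either day or of DL FS on day 7, and 4 without replicate 2 of DL FS on day 4.

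In the Wnt list WIF1, a secreted inhibitor, rose by 0.86 (adjusted p = 0.00074), and the ligand WNT11 and the coreceptor LRP6 fell by 0.55 and 0.48, as 3 of 30. Growth factor genes gave 4 higher of 37, VEGFA, VEGFC at 0.71, IGFBP7, a binding protein, at 0.55 and EGFR, the receptor to which BTC binds, at 0.41, and 1 lower. Among 32 guidance cues SEMA3D and SEMA3A, repellents of axons, rose by 0.86 and 0.65, and 4 fell, with EPHB4, an ephrin receptor, at -0.66 (adjusted p = 1.9e-08) and SEMA6D at -0.38 among them. Of 15 arrays left out in turn, all but 3 (replicate 1 of AS FP and of AS FS on day 4 and replicate 2 of DL FS on day 4) left 1 or 2 of those 4. ST6GAL1, which puts sialic acid on the sugar chains of secreted proteins, measured 5.37, 5.70 and 6.01 on day 7, against 6.45, 6.65 and 6.96 on day 4, without overlap (difference -0.97 ± 0.14, adjusted p = 5.6e-06).

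Lysosomal genes gave 8 lower and 1 higher of 38, with a median of -0.09. SCARB2, a lysosomal membrane protein that also delivers an enzyme, measured 7.36, 7.80 and 8.02 on day 7, against 8.06, 8.35 and 8.60 on day 4, without overlap (difference -0.69 ± 0.09, adjusted p = 5.8e-07). PSAP, the precursor of the saposins, which present lipids to lysosomal enzymes, fell by 0.51 (adjusted p = 3.5e-07), and the glycosidases MANBA and GUSB fell by 0.61 and 0.42. The count of 8 was 5 without the AS FP array of day 7 or replicate 1 of DL FP on day 7, and also without pool AS FP or AS FS. Of 24 genes of endocytosis and caveolae, the plasma membrane pits that fat cells carry in number, 2 rose and 1 fell. CAV2 rose by 0.69 (adjusted p = 4.3e-06). CAV1 rose by 0.50 (adjusted p = 0.0011) by its brightest probe set, but its 8 other probe sets ranged between -0.17 and 0.17. AP2B1, an adaptor of clathrin, fell by 0.25.

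Markers of other cell types that the cultures could hold mostly did not pass, and on arrays of whole cultures fewer cells of a type and less RNA per cell cannot be told apart. Of 19 tested mesenchymal stem cell and fibroblast markers 1 fell (DCN), with a median of -0.05. Their mean was 7.72 to 8.39 on the day 7 arrays and 7.89 to 8.24 on the day 4 arrays. None passed among 8 cartilage, 6 skeletal muscle, 6 endothelial, 7 macrophage and leukocyte and 5 epithelial markers, and their medians were -0.03, 0.11, 0.04, 0.12 and -0.06. The markers of these lists with the smallest p were COL11A1 at 0.61 (adjusted p = 0.04), ACTA1 at 0.38 (adjusted p = 0.14), CDH5 at -0.46 (adjusted p = 0.02), CD14 at 0.34 (adjusted p = 0.05) and CLDN7 at -0.22 (adjusted p = 0.47). For SOX9, the master factor of cartilage, the brightest probe set gave -0.28 (adjusted p = 0.12) and a second one -0.67 (adjusted p = 0.0054). ALPL, alkaline phosphatase, was the 1 of 9 bone markers that rose, by 0.49 (adjusted p = 0.0027), and CSPG4, the NG2 proteoglycan, the 1 of 8 pericyte and smooth muscle markers that passed, at -0.48 (adjusted p = 0.00041). The other 7 of these 8 differences were above 0, and the median of the list was 0.23. The stem cell surface markers CD44, THY1 and ENG differed by -0.20, -0.27 and 0.23 (adjusted p = 0.18, 0.04 and 0.12). PPIA, YWHAZ and HPRT1, common reference genes, differed by 0.04, 0.02 and 0.04.

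**Figure D3:**
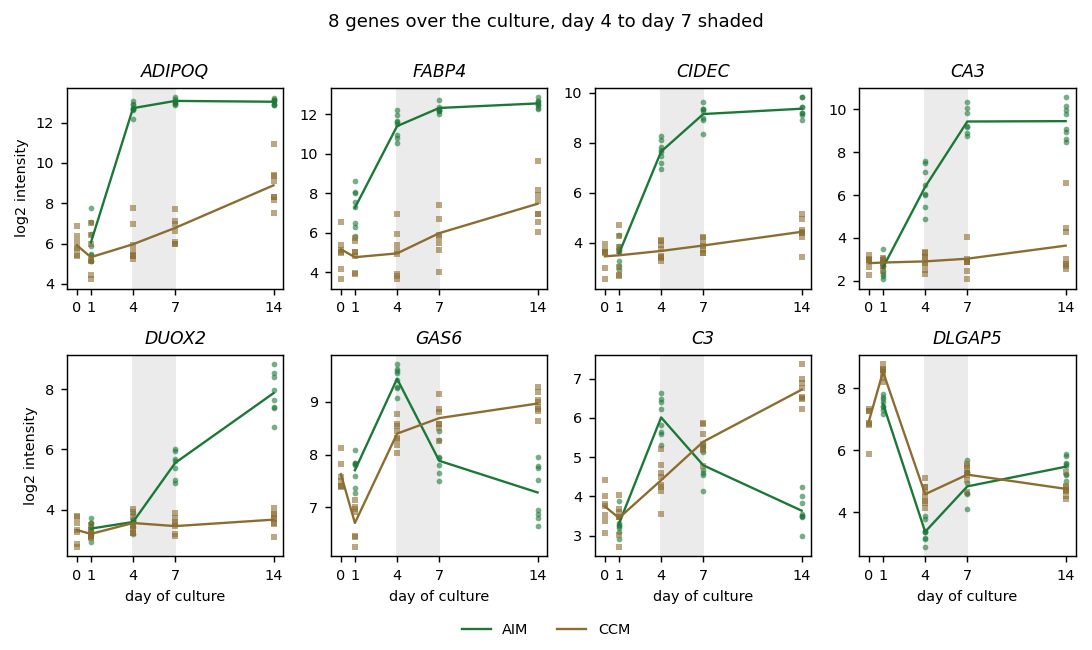
Mean log2 intensity with single arrays on the vertical axis against the day of culture for 8 genes, in AIM and in CCM, with the span from day 4 to day 7 shaded. ADIPOQ had reached 12.72 by day 4 and stood at 13.08 on day 7, DUOX2 stood at 3.59 on day 4, 5.55 on day 7 and 7.87 on day 14 in AIM, and the mean of C3 was lower on day 7 than on day 4 in AIM and higher in CCM.

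The genes followed different courses over the whole culture. CA3 averaged 2.63, 6.38, 9.43 and 9.44 on days 1, 4, 7 and 14 in AIM. DUOX2 averaged 3.37, 3.59, 5.55 and 7.87 on those days, with differences of 0.22 from day 1 to day 4 (adjusted p = 0.17) and 2.32 from day 7 to day 14. CIDEC averaged 3.56, 7.64, 9.14 and 9.36. Most of the measured difference of DUOX2 lay after day 4, while the means of CA3 and CIDEC on day 7 were close to those on day 14. On days 1 and 4 the DUOX2 means lay near those of the background controls (3.33 and 3.48), so its step between these days was barely measured. GAS6 averaged 7.70, 9.44, 7.88 and 7.28, so that day 4 held its highest mean. DLGAP5 averaged 7.50, 3.37, 4.83 and 5.47, with its lowest mean on day 4. The steps of a gene share arrays and are set out as levels only.

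The change in AIM was then set against the change over the same days in CCM, to separate what belongs to induction from what belongs to time in culture. In CCM 25 probe sets were higher and 10 lower on day 7 than on day 4 (0.136% and 0.0545%), and by genes 12 and 4 (0.16% and 0.0534%). The difference between the media (the change in AIM minus that in CCM) passed for 248 probe sets on the higher side and 186 on the lower (1.35% and 1.01%), and by genes for 131 and 95 (1.75% and 1.27%). This difference contains the change in AIM itself. Of the 616 probe sets that rose in AIM, 215 also passed on the higher side here, and of the 429 that fell, 154 passed on the lower side.

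CA3 averaged 3.03 on day 7 and 2.91 on day 4 in CCM, both below the means of the background controls there (3.27 and 3.29). Its change in CCM was therefore not measured, and the difference between the media of 2.92 ± 0.37 is a fitted value. For DUOXA2 and DUOX2, whose means lay above the controls on both days in both media, the media differed by 2.34 and 2.07. Their changes in CCM were -0.05 and -0.10, and the DUOX2 means there were close to the controls. PON1 lay below the controls on day 4 in AIM and on both days in CCM, so no difference between the media is given for it. MIR221, a microRNA probe set, had the second largest value of 2.47 but lay below the background controls on both days in AIM, so no fold is given. It was the 1 of 714 tested microRNA probe sets with a call between the days.

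The largest differences on the lower side came from genes that were higher on day 7 in CCM. The gene that the platform calls SHAS2 averaged 7.94 on day 7 and 9.22 on day 4 in AIM, and 5.40 on day 7 and 4.13 on day 4 in CCM (difference between media -2.54 ± 0.40). MMP1, interstitial collagenase, and CHI3L1, a secreted chitinase-like protein, did not pass in AIM by their brightest probe sets at -0.77 and -0.36 (adjusted p = 0.11 and 0.55) but rose in CCM by 1.56 and 1.83 (adjusted p = 0.0065 and 0.0011), which gave -2.34 and -2.19 between the media. The dimmer of the 2 MMP1 probe sets went its own way: it averaged 3.56 on day 7 and 6.07 on day 4 in AIM, a difference of -2.51 ± 0.19 (adjusted p = 1.1e-11) that was larger than that of GAS6, and -0.20 in CCM, so MMP1 is given as uncertain in both media. C3 differed by -2.21 ± 0.33 between the media, with a change of 0.98 in CCM that did not pass (adjusted p = 0.041). The 17 complement genes had a median change of -0.26 in AIM and 0.13 in CCM. For SPON1 the media differed by -1.87. By median the mitosis list was higher on day 7 in both media, by 0.30 in CCM and by 0.51 in AIM. Its median difference between the media was 0.25. There 3 of its 71 genes passed on the higher side, against 1.75% of all named genes.

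The change was then compared between the breeds. In AS 132 probe sets were higher and 283 lower on day 7 (0.72% and 1.54%), and in DL 733 were higher and 104 lower (4% and 0.567%). The balance moved with the scaling of the arrays: after quantile normalization the AS counts were 160 higher and 188 lower and the DL counts 556 and 209, and after centring each array on its median they were 153 and 231 in AS and 529 and 189 in DL. The median over all tested probe sets was -0.06 in AS and 0.04 in DL. The AS counts lay between 52 and 134 higher and 109 and 284 lower with 1 array left out at a time. They moved by over 1.5 times without the AS FP array of day 7 (52 and 122), replicate 1 of AS FS on day 7 (83 and 172), replicate 2 of AS FP on day 4 (83 and 121) or replicate 2 of AS FS on day 4 (76 and 109). Of the DL counts, the higher one was 452 without replicate 1 of DL FP on day 4, 473 without replicate 2 of DL FP on day 7 and 472 without replicate 2 of DL FS on day 7. The lower one was 48 to 65 without replicate 1 of DL FP on either day, replicate 1 of DL FS on either day, or replicate 2 of DL FP or DL FS on day 4.

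The test of the difference itself, the change in AS minus that in DL, passed for 67 probe sets (0.365%), 66 of them lower (0.36%) and 1 higher (0.00545%). The one on the higher side has no gene name. The count on the lower side moved with the labels, the scaling, the filter, the variance model and single arrays. It was 0 with all 72 arrays as labelled and 29 with the conflicting pairs exchanged. It was 13 without the filter on low values and 100 with an intensity trend and robust variances. It was 28 after quantile normalization and 1 after centring. The median over all probe sets, -0.13 in the main fit, came to -0.01 after quantile normalization and to -0.03 after centring. Over the larger set without the filter it was -0.005. The count on the lower side also moved with single arrays. It was 1 without replicate 1 of AS FP on day 4, 6 without replicate 1 of DL FS on day 7 and 15 without replicate 2 of DL FP on day 4. Without each of replicates 1 of AS FS on day 7, DL FP on day 4 and DL FP on day 7, and replicates 2 of AS FP and AS FS on day 4, DL FP and DL FS on day 7 and DL FS on day 4, it was 21 to 39. It was 106 without replicate 2 of AS FS on day 7.

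Mitosis genes were the largest group in that difference, 12 of 71 lower against 0.48% of all named genes. Their median change was 0.19 in AS, where 2 of 71 rose against 0.88% of all named genes and no member fell, and 0.87 in DL, where 47 of 71 rose against 5.24% of all named genes there. KIF11, the spindle motor Eg5, measured 4.81, 5.15 and 5.06 on the AS arrays of day 7, against 4.28, 5.35, 4.43 and 4.69 on the AS arrays of day 4. In DL it measured 6.08, 5.96, 5.78 and 5.33 on day 7, against 3.51, 4.15, 3.81 and 4.27 on day 4. The days overlapped in AS and were apart in DL, and the changes of 0.26 in AS and 1.85 in DL differed by -1.59 ± 0.29 (adjusted p = 0.004).

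CDK1, the kinase that starts mitosis, measured 3.01, 4.71 and 3.72 in AS on day 7, against 4.25, 4.53, 3.62 and 4.29 on day 4. In DL it measured 5.28, 5.34, 5.01 and 4.75 on day 7, against 3.77, 3.74, 2.97 and 3.53 on day 4. Its change did not pass in AS (-0.57, adjusted p = 0.29), passed in DL (1.59, adjusted p = 8.4e-05) and differed between the breeds by -2.16 ± 0.40 (adjusted p = 0.0042). The DL values of CDK1 on day 4 lay around the mean of the background controls (3.48), so this difference is no exact value. NDC80 and SGO1, of the kinetochore and the centromere, had fitted differences of -1.90 and -1.44, and DLGAP5 of -1.32. The DL means of these 3 genes on day 4 lay below the background controls (3.48), so their differences are no exact values.

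The 12 calls of the mitosis list moved with the labels, the scaling, the filter and single arrays. They were 0 with all 72 arrays as labelled, 4 with the conflicting pairs exchanged and 2 without the filter. They were 9 after quantile normalization, 0 after centring, 0 without replicate 1 of AS FP on day 4 and 1 without replicate 1 of DL FS on day 7. They were 2 to 6 without replicate 1 of AS FS or DL FP on either day, replicate 2 of DL FP on either day, or replicate 2 of AS FP or DL FS on day 4. The median difference between the breeds stayed between -0.54 and -0.84 in every setting run. In CCM the median change of the list was 0.24 in AS and 0.39 in DL.

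**Figure D4:**
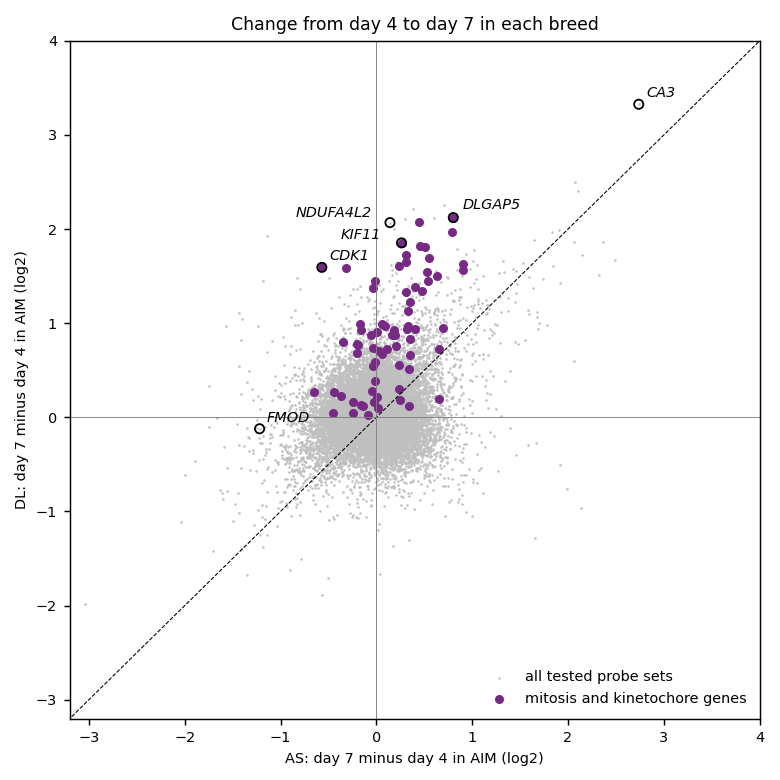
Log2 difference, day 7 minus day 4 in AIM, in AS on the horizontal axis and in DL on the vertical axis, for all tested probe sets in grey, with the 71 mitosis genes in colour and the line of equal change. Most mitosis genes lie above the line, as their medians of 0.19 in AS and 0.87 in DL show, and FMOD lies to the left at -1.22 in AS and -0.12 in DL.

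Outside mitosis, NDUFA4L2, a hypoxia-induced mitochondrial protein, measured 4.74, 4.41 and 4.64 in AS on day 7, against 5.06, 4.55, 4.41 and 3.88 on day 4. In DL it measured 7.90, 5.78, 7.62 and 5.51 on day 7, against 4.62, 4.46, 4.92 and 4.54 on day 4, and the changes differed by -1.93 ± 0.33 (adjusted p = 0.0039). All 4 DL arrays of day 7 stood above all the other arrays. FMOD, the collagen-binding fibromodulin, showed its decrease in AS, with 9.26, 9.82 and 10.35 on day 7, against 10.73, 10.99, 10.73 and 11.14 on day 4. In DL the values were 11.02, 11.50, 11.35 and 11.29 on day 7, against 11.50, 11.67, 11.21 and 11.28 on day 4 (difference between the breeds -1.10 ± 0.17, adjusted p = 0.0019). LOXL2 and NID2 had larger changes in DL, 1.11 and 1.29, than in AS, 0.19 and 0.37, and the breeds differed by -0.92 and -0.91 (adjusted p = 0.0042 and 0.0057).

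Of the 67 probe sets, 47 passed as higher on day 7 within DL, and 62 were higher on day 7 in both DL pools. The list of elastic fibre and proteoglycan genes had a median change of -0.53 in AS and -0.02 in DL, with 1 gene (FMOD) passing in the difference.

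Between the tissues no probe set passed in the difference of the change (FP minus FS) in either direction by limma, and 962 had an unadjusted p under 0.05. Within FP 236 probe sets were higher and 124 lower on day 7 (1.29% and 0.676%), and within FS 218 and 113 (1.19% and 0.616%). In simulated tables of the same size the test between the breeds found 4.48% of genes set to differ by 0.5 on the log2 scale. It found 40.3% of those set to differ by 1 and 87.9% of those set to differ by 2. The simulated noise was independent between arrays and between probe sets, without shifts of whole arrays or culture lines. The shares therefore do not tell how far such a difference could be seen with the real arrays. The test between the tissues was not simulated. For the change itself the shares were 46.3% at 0.5, 83.6% at 1 and 100% at 2.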

How the data were processed

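Of the 72 porcine Snowball arrays, the authors corrected background, normalized and summarized probe sets by RMA in Expression Console and deposited log2 intensity values (scanner software GCOS 1.1.1, from the submitters' processing notes). The table holds 47845 probe sets. Array medians were 3.95 to 4.12, and no value was rescaled. Array number and signal over background limit the precision, as these are not counts.

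Probe sets were tested with an SD over arrays above 0.25 and a value above the array median on at least 8 arrays (18335). Names came from the platform annotation (1 gene for 26426 probe sets, none for 21419), of which 446 were updated to RefSeq symbols and 81 conflicting with the study's files were dropped. A gene was represented by its tested probe set with the highest mean, and other probe sets are given where they go the other way.

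In R (4.3.3), limma (3.58.1) fitted 1 mean for each of 36 groups over 68 arrays, with duplicateCorrelation taking the 8 culture lines, each a replicate number within a pool, as random (statmod 1.5.0, correlation 0.0258), then eBayes and Benjamini-Hochberg adjustment within each comparison at 0.01. The 4 arrays whose labels conflict with the study's tables were left out. The change from day 4 to day 7 averages the 4 pools. Tables were made in Python (3.11.15) with pandas (2.3.3) and numpy (2.4.6). The test was tried on simulated data with known changes and independent noise, and of 155 calls for the change 1.29% were false there.

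Members and gene lists were chosen with earlier results of these data known. Genes are named by rule: the 10 largest increases and decreases with 1 sign in all 4 pools, up to 4 passing members of a list (the 2 smallest p where none passed), the genes the study names, and the 5 largest of each direction for breed, tissue and medium. Alternatives varied labels, arrays, block, scaling, filter, eBayes options, probe set choice and threshold. Changes within AS and DL, and the mitosis list between them, were added after seeing the data. No sequence is printed, and no detection p-value or comparison column was used.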

Additional observations from a re-analysis of the deposited data

Results flagged for a closer look

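In a group of 7 or 8 arrays, 1 array lay far from the rest for 10 of 390 combinations of named gene and day, and chance alone marks about 1 in 20. On day 7 these were AGPAT1 at 10.47 in AS FP replicate 1 (others 9.51 to 9.79), COL14A1 at 8.14 in DL FS replicate 2 (others 5.00 to 6.05), JAK2 at 4.90 in AS FS replicate 2 (others 5.43 to 5.78) and SGO1 at 3.80 in AS FP replicate 1 (others 4.55 to 4.96). On day 4 they were OAS2 at 10.41 in AS FS replicate 2 (others 8.73 to 9.44), PSPH at 2.50 in DL FS replicate 1 (others 3.20 to 3.82), PDIA6 at 7.50 in AS FP replicate 1 (others 7.74 to 7.90), SOX9 at 6.63 in AS FS replicate 1 (others 7.27 to 7.79), HPRT1 at 5.95 in DL FP replicate 1 (others 6.42 to 6.78) and MMP1 at 4.27 in DL FP replicate 1 (others 5.20 to 6.01).

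The change from day 4 to day 7 differed between AS and DL in the test of the difference for 67 probe sets. By genes 36 passed on the lower side, and those that the naming rule picked among them were CDK1 (-2.16), NDUFA4L2 (-1.93), NDC80 (-1.90), KIF11 (-1.59), SGO1 (-1.44), DLGAP5 (-1.32), FMOD (-1.10), LOXL2 (-0.92) and NID2 (-0.91), on the log2 scale and as AS minus DL. NDC80, SGO1 and DLGAP5 had DL means below the background controls on day 4, and CDK1 lay around them there, so the values of these genes are not exact. The number of such probe sets moved with the labels, the scaling, the filter, the variance model and single arrays, as given beside the result.

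Among the arrays left out, the one labelled AS FP, CCM, day 7, replicate 2 had a median of 10.31 over the fat cell markers, where the 7 other CCM arrays of day 7 had 4.50 to 5.82.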

How the results depend on the processing

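The change between the days was recomputed under 30 settings, and the differences between breeds, tissues and media and the changes within a breed under fewer, without the fits of 15 arrays, the mean over probe sets and the omission of a pool. Of 132 named genes that passed between the days, 27 passed in the same direction under all 30. One setting took all 72 arrays as labelled, so that the array with a marker median of 4.77 counted as day 7 in AIM. For CIDEC, ME1, DGAT2, CDKN1A and MDM2, among others, the call was lost in that setting only. The call was lost in 19 to 25 of them for AGPAT1, RBP4, NSDHL, ZMAT3, CPT1A, SLBP, NQO1, CCNE2 and AQP7, in 17 for MYL9, and in 15 each for OAS1, CFI, MLXIPL, ECM2 and AP2B1. With all 72 arrays as labelled, 304 probe sets were higher and 174 lower, and SCD and ACAA1 had differences of -0.19 and -0.14 that did not pass (adjusted p = 0.87 and 0.9). The breed difference then had 0 in each direction, AS 41 higher and 89 lower, DL 149 and 26, and the media difference 98 and 72. With the conflicting pairs exchanged, AS had 215 higher and 398 lower, and the breed difference 0 and 29. A fit of the 15 arrays alone with the pool as a block and no replicate block gave 254 higher and 158 lower, and one with the culture line as a fixed replicate block 177 and 69. Over all tested probe sets, the deviations of same-numbered arrays of day 4 and day 7 in AIM correlated weakly. The values were 0.132 (AS FS), 0.035 (DL FP) and 0.017 (DL FS), and AS FP could not be checked. Single genes can still carry an offset between replicates, so this check does not decide whether the numbers pair the samples. For ADIPOQ in AS FS, replicate 1 lay above replicate 2 on day 4 (12.91 and 12.66) and on day 7 (13.17 and 12.98). With no replicate block over all arrays the counts were 590 and 410, with 0 and 54 for the breeds. Centring gave 0 and 1 for the breeds and 189 lower in DL. Quantile normalization gave 2 and 28 for the breeds, 188 lower in AS and 209 lower in DL. Without the filter the breeds had 13 lower and AS 161. An intensity trend with robust variances, chosen for the breeds after seeing the data, gave 2 higher and 100 lower between them. The mean over the probe sets of a gene gave 372 and 238 genes. A difference of at least 1 left 116 and 25. Leaving out a pool gave 214 lower without AS FS, 313 higher and 267 lower without DL FP, and 342 higher without DL FS. Leaving out 1 array at a time gave 491 to 592 higher and 300 to 439 lower between the days, 0 to 12 and 1 to 106 for the breeds, 0 and 0 for the tissues, 200 to 277 and 129 to 205 for the media, 52 to 134 and 109 to 284 in AS, and 452 to 751 and 48 to 111 in DL. Small counts of the gene lists moved by over 1.5 times in the same way. The number higher ran between 1 and 2 for adipokines (1 in 12 of the 15 omissions) and for the citrate cycle (1 without the AS FP array of day 7 or replicate 1 of DL FP or DL FS on day 4), 0 and 3 for beta-oxidation (0 without replicate 1 of AS FS on day 7 or replicate 2 of DL FP on day 4), 1 and 3 for browning and for the lysosome, 1 and 4 for antioxidant genes, 0 and 3 for metalloproteinases (0 in 5 omissions) and for bone markers, 1 and 5 for lipolysis, and 0 and 1 for the Wnt and peroxisome lists (0 without the AS FP array of day 7). The number lower ran between 0 and 2 for cholesterol synthesis, 1 and 4 for guidance cues, 1 and 2 for the Wnt list, and 0 and 1 for growth factors, cytokines, endocytosis and fatty acid synthesis. The causes of these shifts were not tested. Genes near the background controls have only a bound.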
